A study of Mus musculus with 12 samples.

Results

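The receptor genes described here encode 10 chains of the receptors through which CD4+ T cells read interleukins, namely Il2ra, Il2rb, Il2rg, Il4ra, Il21r, Il6ra, Il6st, Il12rb1, Il12rb2 and Il18r1. They were chosen by name and found by symbol, and all 10 were among the 55414 gene records of the expression table. The study asked how ligature-induced periodontitis, in which a ligature is tied around the upper second molar, changes splenic CD4+ T cells. RNA of these cells was sequenced in 12 libraries from male wild-type BALB/c mice aged 18 weeks, with 3 libraries in each of 4 groups. Mice with the ligature (LIP) were compared with healthy mice (CTL), and cells were taken either uncultured (day 0) or after 2 days of culture (day 2) with IL-2 at 10 ng/mL, anti-TCRbeta at 1 µg/mL and anti-CD28 at 1 µg/mL. The day 0 groups were CTL 88, 89 and 94 and LIP 92, 93 and 94, and the day 2 groups were CTL 92, 93 and 97 and LIP 90, 96 and 97. On day 2 the treatment labels of CTL 93 and LIP 96 named anti-CD29, and those of CTL 97 and LIP 97 named anti-CD30, where the protocol named anti-CD28 for every culture. The concentrations are those of the labels, and the methods of the study give other ones for IL-2 and anti-TCRbeta, so that the amounts used are uncertain. The day 0 libraries carried no added cytokine or antibody, so that day, culture and any batch cannot be told apart. Nothing beyond the numbers in the labels says that the libraries came from separate mice, and the p-values measure only the spread between these libraries.

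Interleukin receptors are built from chains that are shared between cytokines. IL-2 is bound with high affinity by a complex of Il2ra (CD25), Il2rb (CD122) and Il2rg (the common gamma chain), and the common gamma chain also pairs with the receptors of IL-4, IL-21, IL-7 and IL-15. IL-6 binds Il6ra, which signals through Il6st (gp130), IL-12 binds Il12rb1 with Il12rb2, and IL-18 binds Il18r1 with its accessory chain Il18rap. In CD4+ T cells, CD25 is a classical marker of activation and of regulatory T cells, whereas Il12rb2 and Il18r1 are known for their part in Th1 responses. Except for the IL-18 receptor, which signals through Myd88, these receptors act through JAK kinases and STAT factors.

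The positions of the genes are given on the mouse build GRCm39, where all 10 are protein-coding. Il2ra (ENSMUSG00000026770) lies at chr2:11647618-11698004 on the plus strand. Il2rb (ENSMUSG00000068227) lies at chr15:78363456-78395566 and Il2rg (ENSMUSG00000031304) at chrX:100307984-100311861, both on the minus strand. Il4ra (ENSMUSG00000030748, chr7:125151079-125182844) and Il21r (ENSMUSG00000030745, chr7:125202601-125232756) are neighbours on the plus strand, with 19756 bases and 0 annotated genes between them. Il6ra (ENSMUSG00000027947) lies at chr3:89771366-89820719 on the minus strand and Il6st (ENSMUSG00000021756) at chr13:112600604-112646620 on the plus strand. Il12rb1 (ENSMUSG00000000791) lies at chr8:71261093-71276183 on the plus strand and Il12rb2 (ENSMUSG00000018341) at chr6:67268302-67353172 on the minus strand. Il18r1 (ENSMUSG00000026070) lies at chr1:40504712-40540014 on the plus strand. The span of Il12rb2 is overlapped by the protein-coding Serbp1 on the other strand. Il2ra, Il2rb, Il4ra, Il6ra and Il6st are overlapped by long noncoding genes on the other strand, and Il2ra also by the unclassified Gm37881 on its own strand. The strand setting of the counting is not given in the sources used here, and reads of an overlapping pair may not have been separated.

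Promoter sequences are shown for 3 of the 4 genes whose level moved by more than 4-fold between the days. For Il2ra, Il12rb2 and Il18r1 the lines give 250 bases upstream of a RefSeq start, 5′ to 3′ on the strand of the gene, from RefSeq promoter sequences of build GRCm38.p6 that matched GRCm39 exactly at chr2:11647353-11647602 (plus), chr6:67353173-67353422 (minus) and chr1:40504462-40504711 (plus). The capitals mark a match to a searched motif.
Il2ra: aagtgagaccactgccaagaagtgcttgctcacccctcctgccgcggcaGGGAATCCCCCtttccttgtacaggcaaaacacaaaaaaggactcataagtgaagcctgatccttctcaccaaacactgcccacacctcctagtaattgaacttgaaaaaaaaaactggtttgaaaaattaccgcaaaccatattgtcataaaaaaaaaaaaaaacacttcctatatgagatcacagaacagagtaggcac
Il12rb2: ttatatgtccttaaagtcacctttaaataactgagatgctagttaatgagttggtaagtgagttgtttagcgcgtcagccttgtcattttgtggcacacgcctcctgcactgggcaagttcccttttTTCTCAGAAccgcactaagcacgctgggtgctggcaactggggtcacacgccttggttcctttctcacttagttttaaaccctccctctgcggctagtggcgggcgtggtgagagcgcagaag
Il18r1: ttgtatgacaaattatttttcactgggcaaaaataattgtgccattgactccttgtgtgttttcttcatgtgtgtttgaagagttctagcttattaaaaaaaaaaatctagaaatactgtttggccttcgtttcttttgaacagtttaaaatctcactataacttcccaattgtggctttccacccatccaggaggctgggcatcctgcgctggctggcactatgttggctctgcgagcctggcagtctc
The motifs were searched on both strands in 32851 promoter entries of the mouse. The capitals in Il2ra cover 2 overlapping matches to the kappaB motif, bases 201 to 191 upstream of the start, and this motif was present in 3.90% of all entries. The capitals in Il12rb2 are a match to the STAT motif GAS (TTCNNNGAA), bases 123 to 115 upstream, which 7.02% of entries held. Of 3 entries for Il18r1 the one that lies outside the annotated gene was taken. Its start lies 306 bases from the start of the canonical transcript, against 15 bases for Il2ra and 0 for Il12rb2. The entry held none of the searched letters, which also included AP-1 (TGANTCA, 6.75% of entries), the T-box motif (TCACACCT, 1.12%) and CRE (TGACGTCA, 1.55%). Entries were found for 8 of the 10 genes, and in the other 5 (Il2rg, Il4ra, Il6ra, Il6st and Il21r) none of these motifs was found. Il2rb and Il12rb1 had no entry in the table. Such matches describe letters and not binding.

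Library totals were 6249018 to 7845676 counts on day 0 and 8691699 to 12866718 counts on day 2. Levels are given in CPM, the counts scaled to a common library total, after TMM scaling, and a value below is such a level unless it is called a fold change, a difference or a share. The T cell identity of the libraries was checked with Cd4, which lay between 421 and 643 CPM, and Cd3e, which lay between 447 and 592 CPM. The sum of 2 CD8 markers was 4.42 to 13.2 CPM. The sum of 8 B cell markers was 1.43 to 5.78 CPM in 9 libraries and 23.0, 36.9 and 34.5 CPM in CTL 97, LIP 96 and LIP 97 of day 2, and the sum of 10 myeloid markers was 2.59 to 15.5 CPM. The CTL and LIP groups were not evenly separated. On the first principal component of day 0, CTL 94 (13.4) lay among the LIP libraries (7.78 to 18.4), whereas CTL 88 (-18.6) and CTL 89 (-37.0) lay apart. On that of day 2, LIP 90 (-8.11) lay nearer to the CTL libraries (-34.9 to -18.1) than to LIP 96 (44.9) and LIP 97 (39.4). Each call between LIP and CTL that changes without CTL 94 or LIP 90 is given below with and without that library. In these bulk libraries, fewer cells of a type and less RNA per cell cannot be told apart.

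The comparison of day 2 with day 0 asked how the receptors differed between uncultured and activated cells. The receptor of IL-12 and the alpha chain of the IL-2 receptor rose by more than 16-fold in both groups, Il18r1 of the IL-18 receptor fell by more than 24-fold, and both chains of the IL-6 receptor fell to between 0.309 and 0.427 of the day 0 level. In CTL, 5 of the 10 genes rose, 3 fell and 2 did not pass an adjusted p of 0.05 in edgeR's quasi-likelihood test. In LIP, 4 rose, 3 fell and 3 did not pass. Of all 15475 genes tested, 35.3% rose and 33.7% fell in CTL, and 36.6% rose and 35.2% fell in LIP, so that the number of receptor genes that changed was near the background. A fold change above 4 was less common. Among the receptors, 3 genes rose and 1 gene fell by this much in each group, whereas the background was 9.33% higher and 6.07% lower in CTL, and 9.14% higher and 6.38% lower in LIP. The median log2 fold change of the 10 genes was 0.43 in CTL and 0.29 in LIP, and that of all genes was -0.02 and -0.00. These splits depended on the scaling. With upper-quartile scaling the median of all genes moved to -0.31 in CTL and -0.32 in LIP, and with total counts only to -0.21 and -0.36. The share of higher genes among those called, 51.1% in CTL and 51.0% in LIP with TMM, then became 38.4% and 37.7% with upper-quartile scaling and 42.4% and 36.2% with total counts.

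**Figure D1:**
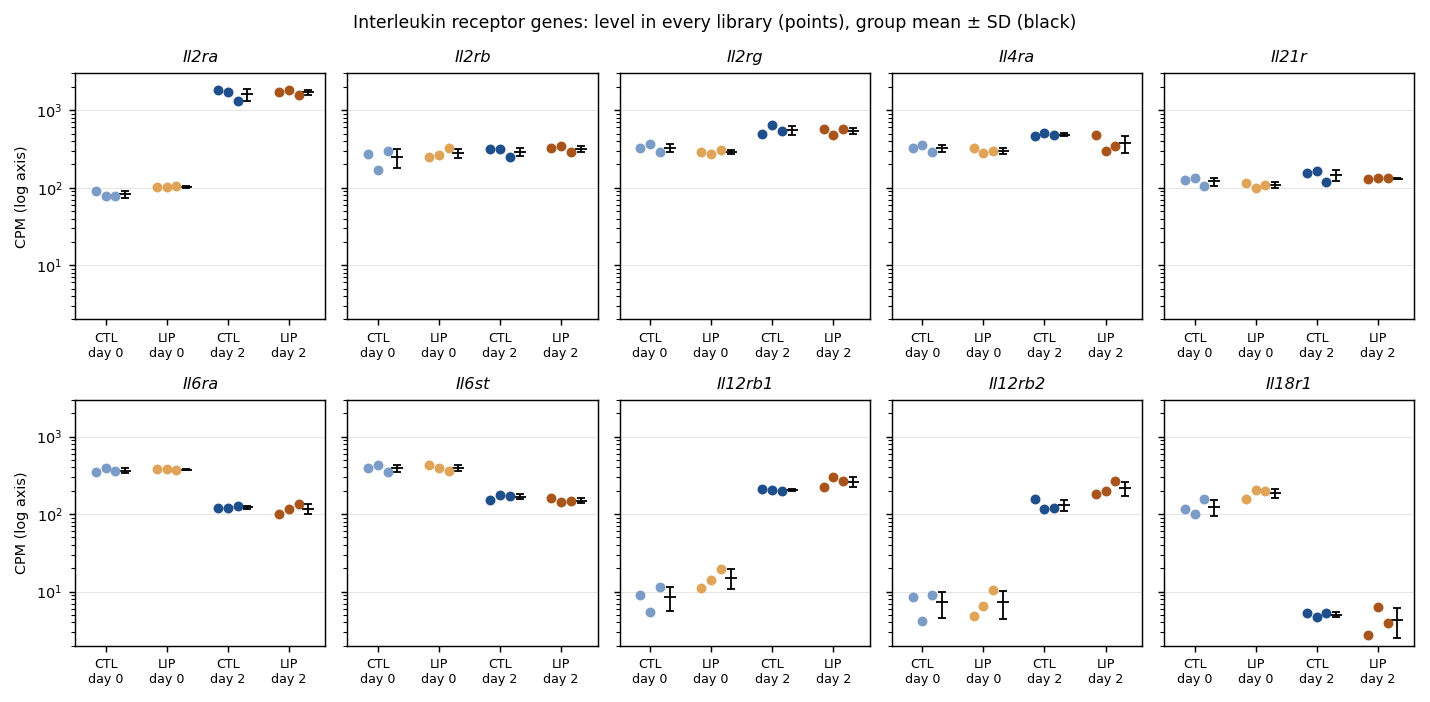
Level of each of the 10 receptor genes in CPM on a log axis (vertical) for the 4 groups (horizontal). Each point is 1 library and the black marks give the group mean ± SD of 3 libraries. Il2ra, Il12rb1 and Il12rb2 are higher and Il6ra, Il6st and Il18r1 lower in every day 2 library than in every day 0 library.

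The chains of the IL-2 receptor differed from each other. Il2ra, the chain that raises the affinity for IL-2, was at 91.1, 78.0 and 77.4 CPM in CTL and 101, 102 and 107 CPM in LIP on day 0. By day 2 it was at 1847, 1704 and 1297 CPM in CTL and 1714, 1832 and 1582 CPM in LIP. Every cultured library lay above every uncultured one, and CTL 97 was the lowest of day 2. The log2 fold change was 4.30 ± 0.14 (SE; 19.7-fold; adjusted p = 1.69e-10) in CTL and 4.05 ± 0.14 (16.5-fold; adjusted p = 1.91e-10) in LIP. Il2rg, the common gamma chain, rose from 327 ± 38.6 (SD, n = 3) to 556 ± 73.4 CPM in CTL and from 290 ± 16.3 to 541 ± 52.6 CPM in LIP. This was a change of 1.70-fold (adjusted p = 7.56e-05) and 1.87-fold (adjusted p = 1.66e-05). Il2rb, the signalling chain shared with the IL-15 receptor, was at 275, 168 and 298 CPM in CTL and 250, 262 and 322 CPM in LIP on day 0. On day 2 it was at 313, 312 and 251 CPM in CTL and 329, 342 and 287 CPM in LIP. Its groups overlapped, and the log2 differences of 0.24 ± 0.18 in CTL (95% confidence interval -0.14 to 0.63; adjusted p = 0.243) and 0.20 ± 0.18 in LIP (-0.19 to 0.58; adjusted p = 0.334) did not pass the test.

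Per kilobase of exon, the makeup of the IL-2 receptor transcripts changed. On day 0, Il2rg held 57.9 to 74.7% of the summed level of the 3 chains, Il2rb 18.7 to 33.6% and Il2ra 6.61 to 9.33%. On day 2, Il2ra held 44.4 to 53.8%, Il2rg 33.5 to 44.3% and Il2rb 11.3 to 13.1%. The ratio of Il2ra to Il2rg was 0.106 ± 0.0155 in CTL and 0.149 ± 0.00700 in LIP on day 0, and 1.23 ± 0.299 and 1.33 ± 0.229 on day 2. The ranges of the days did not overlap for any of the 3 chains.

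**Figure D2:**
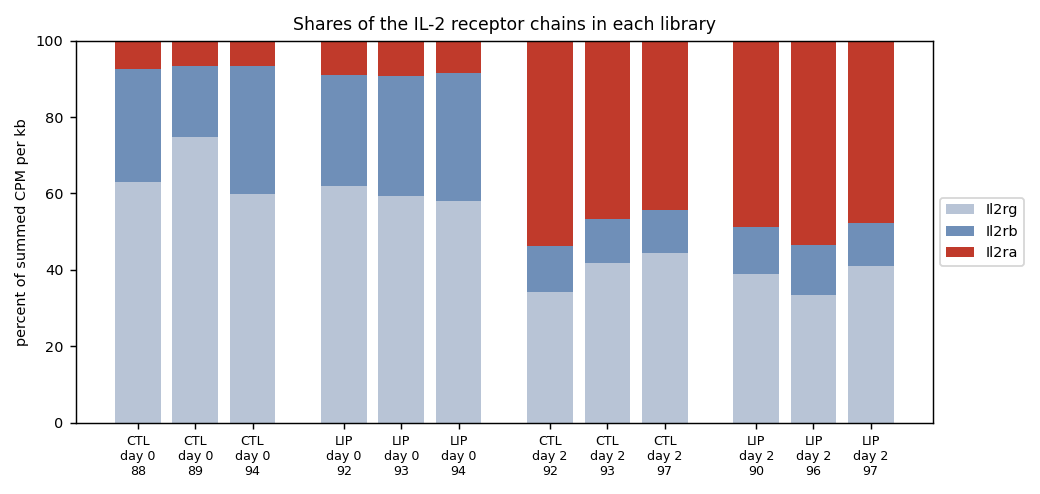
Share of Il2ra, Il2rb and Il2rg in their summed CPM per kilobase of exon (vertical axis, percent), with 1 bar for each of the 12 libraries. Il2ra takes 6.61 to 9.33% on day 0 and 44.4 to 53.8% on day 2.

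Il4ra and Il21r, the ligand-binding chains that pair with the common gamma chain for IL-4 and IL-21, changed little. Il4ra rose from 323 ± 31.8 to 483 ± 22.7 CPM in CTL (log2 fold change 0.58 ± 0.15, adjusted p = 0.00289), a call that was lost with upper-quartile scaling (adjusted p = 0.0614). In LIP it was at 326, 279 and 295 CPM on day 0 and at 475, 299 and 343 CPM on day 2. LIP 90 was high, the other day 2 libraries overlapped day 0, and the log2 difference of 0.31 ± 0.15 did not pass (adjusted p = 0.0687), and it was 0.10 without LIP 90 (adjusted p = 0.394) and 0.46 without LIP 96 (adjusted p = 0.00962). Il21r was at 121 ± 14.3 and 146 ± 23.8 CPM in CTL and at 108 ± 8.52 and 131 ± 2.63 CPM in LIP, on day 0 and day 2. The log2 differences of 0.27 ± 0.12 (adjusted p = 0.0672) and 0.28 ± 0.12 (adjusted p = 0.0614) did not pass. Il21r passed in CTL without CTL 89 of day 0 (adjusted p = 0.0478), CTL 97 of day 2 (0.00764) or LIP 90 (0.0493), and in LIP without CTL 94 of day 0 (0.0407), CTL 93 (0.0485) or CTL 97 (0.025) of day 2. The signs of Il2rb and Il21r in both groups turned with upper-quartile scaling, and in LIP those of Il2rb, Il21r and Il4ra turned with both upper-quartile scaling and total counts. The 7 genes that passed in both groups kept their direction under each scaling.

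Both chains of the IL-6 receptor fell. Il6ra, which binds IL-6, was at 348, 390 and 354 CPM in CTL and 383, 376 and 364 CPM in LIP on day 0, and at 119, 119 and 126 CPM in CTL and 99.6, 114 and 133 CPM in LIP on day 2. Il6st, the signal-transducing chain, was at 393, 431 and 348 CPM in CTL and 357 to 426 CPM in LIP on day 0, and at 153, 176 and 172 CPM in CTL and 160, 141 and 146 CPM in LIP on day 2. No library of day 2 reached the day 0 range of either gene. Il6ra was 3.00-fold lower in CTL (log2 fold change -1.58 ± 0.11, adjusted p = 2.58e-08) and 3.24-fold lower in LIP (-1.70 ± 0.11, adjusted p = 1.31e-08). Il6st was 2.34-fold lower in CTL (-1.23 ± 0.11, adjusted p = 3.24e-07) and 2.63-fold lower in LIP (-1.39 ± 0.11, adjusted p = 9.08e-08). The ratio of Il6ra to Il6st per kilobase was 1.55 to 1.79 on day 0 and 1.09 to 1.60 on day 2, and LIP 97 of day 2 lay within the day 0 range.

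Both chains of the IL-12 receptor rose from low levels. Il12rb1, which is shared with the IL-23 receptor, was at 9.02, 5.41 and 11.3 CPM in CTL and 11.1, 14.2 and 19.7 CPM in LIP on day 0, from 45 to 148 counts in a library. By day 2 it was at 210, 205 and 196 CPM in CTL and 222, 296 and 265 CPM in LIP. The fold change was 23.9 in CTL (log2 4.58 ± 0.24, adjusted p = 2.64e-09) and 17.3 in LIP (log2 4.11 ± 0.22, adjusted p = 3.78e-09). Il12rb2, the signalling chain, was at 8.57, 4.20 and 8.93 CPM in CTL and 4.81, 6.60 and 10.4 CPM in LIP on day 0, from 35 to 78 counts. On day 2 it was at 154, 118 and 121 CPM in CTL and 179, 199 and 267 CPM in LIP. The fold change was 18.3 in CTL (log2 4.19 ± 0.28, adjusted p = 2.46e-08) and 29.4 in LIP (log2 4.88 ± 0.28, adjusted p = 6.34e-09). The promoter letters of Il12rb2 are those shown above with the GAS match.

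Il18r1, the ligand-binding chain of the IL-18 receptor, fell more than any other of the 10 genes. It was at 116, 99.0 and 154 CPM in CTL and 156, 201 and 199 CPM in LIP on day 0. By day 2 it was at 5.27, 4.65 and 5.22 CPM in CTL and 2.77, 6.26 and 3.88 CPM in LIP, from 30 to 67 counts in a library. The lowest uncultured library lay far above the highest cultured one. The log2 fold change was -4.60 ± 0.24 in CTL (24.3-fold lower, adjusted p = 3.03e-09) and -5.42 ± 0.25 in LIP (42.8-fold lower, adjusted p = 1.13e-09). The summed level of 8 NK and cytotoxic markers was also lower, at 77.8 to 96.7 CPM on day 0 and 22.4 to 74.6 CPM on day 2, where Gzma made up 46.1 CPM of the highest value, in LIP 96. Of the 8 genes, 6 passed as lower in each group (background 33.7% in CTL and 35.2% in LIP). The log2 fold change was above 0 for 1 gene in CTL and 2 in LIP. Mean Gzma went from 2.97 to 4.63 CPM in CTL and from 8.29 to 19.0 CPM in LIP. Mean Klrk1 went from 12.3 to 5.16 CPM in CTL and from 13.3 to 19.8 CPM in LIP. The defining NK gene Ncr1 was at 0.961 to 4.93 CPM on day 0 and 0 to 0.374 CPM on day 2, and its log2 fold change was -4.51 ± 0.74 in CTL and -4.08 ± 0.58 in LIP. Klrb1c, another NK gene, was at 0.961 to 4.53 CPM on day 0 and 0 to 0.748 CPM on day 2. The cells had been isolated by negative selection, which is meant to remove NK cells, and the part of such cells in the fall of Il18r1 was not tested.

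**Figure D3:**
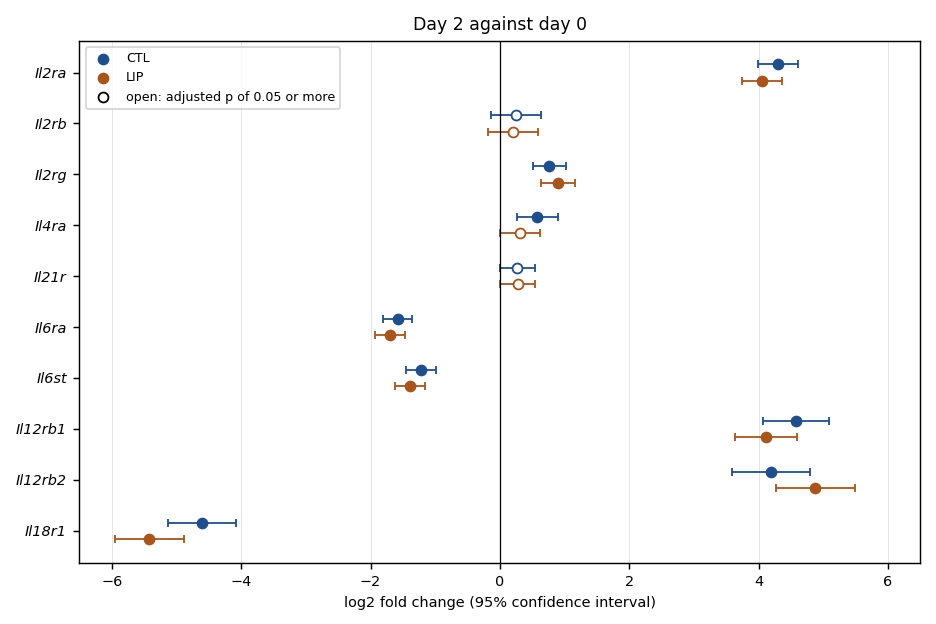
Log2 fold change of day 2 against day 0 (horizontal axis) for the 10 receptor genes, in CTL and LIP, with 95% confidence intervals of the edgeR fit. Filled points passed an adjusted p of 0.05. Il2ra, Il12rb1 and Il12rb2 lie between 4.05 and 4.88, Il18r1 at -4.60 and -5.42.

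The order of the receptors by CPM per kilobase of exon was therefore different on the days. On day 0 Il2rg led with 137 ± 16.2 in CTL and 121 ± 6.83 in LIP, followed by Il2rb with 56.8 ± 15.9 and 64.0 ± 8.88. Il6ra, Il21r, Il4ra, Il6st and Il18r1 followed between 25.0 and 42.3, and several neighbours among them overlapped, such as Il6st and Il18r1 in CTL and Il18r1, Il21r and Il4ra in LIP. Il2ra was eighth with 14.4 ± 1.36 in CTL and 18.1 ± 0.534 in LIP. Il12rb1 and Il12rb2 came last, between 1.38 and 2.41, and their ranges overlapped in both groups. On day 2 Il2ra led with 283 ± 50.0 in CTL, where its range overlapped that of Il2rg (233 ± 30.8), and with 299 ± 21.9 in LIP, where it did not (227 ± 22.0). Il2rb, Il4ra, Il21r, Il12rb1 and Il12rb2 held the middle between 32.8 and 73.4, Il6ra and Il6st lay between 9.60 and 13.7, and Il18r1 was last with 1.02 ± 0.0701 in CTL and 0.874 ± 0.362 in LIP. The places in the middle depended on the length used, and the first 2 and last 3 genes of each day kept their places as a set with the longest transcript.

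LIP was compared with CTL on day 0 to ask how periodontitis changed the receptors in resting cells. None of the 10 genes passed an adjusted p of 0.05, against 0.427% of 14064 genes tested. Without adjustment 3 genes were under 0.05 (background 13.9%). In DESeq2 Il18r1 passed (adjusted p = 0.002), as did 208 genes in all. These were 2.98% of the genes to which DESeq2 gave an adjusted p, which were only part of the 25641 genes with a p-value. The groups were apart, with no overlap between their libraries, for 2 genes (background 19.1%). The median log2 fold change of the 10 genes was 0.04, against 0.01 for all genes, with 7 above 0 and 3 below. Il18r1 was at 116, 99.0 and 154 CPM in CTL and 156, 201 and 199 CPM in LIP, so that each LIP library was higher than each CTL library, CTL 94 and LIP 92 lying close together. The log2 difference was 0.60 ± 0.15 (1.51-fold; adjusted p = 0.116). Without CTL 94 it was 0.79 with an adjusted p of 0.00118. Leaving out each library in turn, it ranged from 0.45 to 0.79, with adjusted p up to 0.464. Il2ra was also higher in each LIP library, at 101, 102 and 107 CPM against 91.1, 78.0 and 77.4 CPM (log2 difference 0.34 ± 0.08, 1.26-fold, adjusted p = 0.112). Il12rb1 overlapped, with LIP 92 at 11.1 CPM below CTL 94 at 11.3 CPM (log2 difference 0.82 ± 0.26, 1.77-fold, adjusted p = 0.204). Without CTL 94 the difference was 1.09 with an adjusted p of 0.0326, so that 2 of the 10 genes passed, against 4.59% of all genes tested. Leaving out each library in turn, the difference of Il12rb1 ranged from 0.56 to 1.09, with adjusted p up to 0.566. For the other 7 genes the log2 differences lay between -0.17 and 0.18, with adjusted p between 0.419 and 0.982. Without CTL 94 that of Il2rb was 0.34, that of Il12rb2 0.22 and that of Il6st -0.071, and none passed.

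The levels of marker genes of other cells and cell states on day 0 are given beside these differences. The summed level of 8 regulatory T cell markers, among which Il2ra was not counted, was 344 to 509 CPM in CTL and 504 to 547 CPM in LIP on day 0. Foxp3, which defines these cells, was at 65.4, 59.1 and 47.3 CPM in CTL and 61.5, 57.8 and 72.7 CPM in LIP. Of the 8 markers, 7 had a difference above 0 (median log2 difference 0.19) and none passed, and Ikzf2 was higher in each LIP library (0.49 ± 0.14, adjusted p = 0.162). CTL 89 held the lowest marker sum, and it also held the lowest Il2rb, Il12rb1, Il12rb2 and Il18r1 of its group. The same library held the highest Il2rg, Il4ra, Il6ra, Il6st and Il21r of the group and the highest sum of naive T cell markers. The lowest Foxp3 was in CTL 94. The sum of 7 naive T cell markers was 3854 to 4939 CPM in CTL and 3771 to 4072 CPM in LIP, and the sum of NK and cytotoxic markers overlapped, at 77.8 to 94.4 and 77.8 to 96.7 CPM. Of the 8 NK and cytotoxic genes, 7 had a difference above 0 (median log2 difference 0.42) and none passed, among them Gzma (1.51 ± 0.53, adjusted p = 0.240) and Ncr1 (0.86 ± 0.40, adjusted p = 0.367). Prf1, the most abundant of them, was lower in each LIP library (-0.66 ± 0.13, adjusted p = 0.064). The sum of 8 activated T cell markers was lower in each LIP library, at 474 to 484 CPM against 538 to 673 CPM in CTL, although 6 of the 8 genes had a difference above 0. The early activation marker Cd69 was at 386, 296 and 215 CPM in CTL and 176, 151 and 152 CPM in LIP, and it was the 1 gene of all lists that passed on day 0 (log2 fold change -0.90 ± 0.16, adjusted p = 0.0375). The part of these cells in the differences was not tested.

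The IL-12 receptor chains stood in another ratio in the groups, a contrast picked after its values had been seen. Per kilobase, Il12rb1 was at 0.642, 0.784 and 0.771 of Il12rb2 in CTL and at 1.41, 1.31 and 1.16 of it in LIP on day 0, with no overlap. On day 2 the ratio was 0.830, 1.06 and 0.987 in CTL and 0.754, 0.909 and 0.607 in LIP, where the groups overlapped. With 3 libraries a group, the two-sided exact permutation test cannot give a p below 0.1.

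On day 2, LIP was compared with CTL to ask whether the receptors of activated cells differed. The number of receptor genes that passed was 0 of 10 in edgeR, the background being 0% of 14041 genes. Without adjustment 2 genes were under 0.05 (background 16.5%). In DESeq2 Il12rb2 passed (adjusted p = 0.0155), as did 488 genes in all. These were 3.27% of the genes to which DESeq2 gave an adjusted p, which were only part of the 25704 genes with a p-value. The groups were apart for 2 genes (background 21.4%). The median log2 fold change was -0.07, against -0.01 for all genes, with 4 genes above 0 and 6 below. Il12rb2 was at 154, 118 and 121 CPM in CTL and 179, 199 and 267 CPM in LIP, higher in every LIP library, LIP 97 being the highest. The log2 difference was 0.70 ± 0.18 (1.63-fold; adjusted p = 0.150). Il12rb1 was also higher in every LIP library, at 222, 296 and 265 CPM against 210, 205 and 196 CPM (log2 difference 0.35 ± 0.13, 1.27-fold, adjusted p = 0.260). Il4ra was lower in LIP 96 and LIP 97, at 299 and 343 CPM, than in the CTL libraries (460, 505 and 485 CPM), whereas LIP 90 was at 475 CPM (log2 difference -0.39 ± 0.17, adjusted p = 0.303). Without LIP 90, Il12rb2 (0.84, adjusted p = 0.0101) and Il12rb1 (0.48, adjusted p = 0.0162) passed as higher and Il4ra (-0.57, adjusted p = 0.0120) as lower. These were 3 of 10 genes, and 13.9% of all genes passed in the same fit. Leaving out each library in turn, the log2 difference ranged from 0.52 to 0.84 for Il12rb2 and from 0.26 to 0.48 for Il12rb1. For Il4ra it ranged from -0.57 to -0.24. The highest adjusted p in these fits was 0.528 for Il12rb2, 0.599 for Il12rb1 and 0.662 for Il4ra. For the other 7 genes the log2 differences lay between -0.24 and 0.12. Without LIP 90 the sign turned for Il18r1 (from -0.24 to 0.036) and Il6ra (from -0.081 to 0.043).

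The sum of the regulatory T cell markers was 682 to 833 CPM in CTL and 651 to 713 CPM in LIP on day 2, and Foxp3 was lower in each LIP library (31.8, 27.9 and 29.4 CPM) than in each CTL library (35.9, 42.2 and 41.6 CPM; adjusted p = 0.168). Of the 8 markers, 6 had a difference below 0 (median log2 difference -0.32) and none passed. For 4 of the 8, each LIP library was lower than each CTL library, among them Nrp1 (-1.06 ± 0.26, adjusted p = 0.139). The groups were apart in either direction for 21.4% of all genes. The sum of NK and cytotoxic markers was 22.4 to 29.7 CPM in CTL and 27.0 to 74.6 CPM in LIP, and 4 of the 5 genes tested had a difference above 0 (median log2 difference 0.91), of which none passed. The B cell markers were high in LIP 96, LIP 97 and CTL 97. The part of these cells was not tested.

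**Figure D4:**
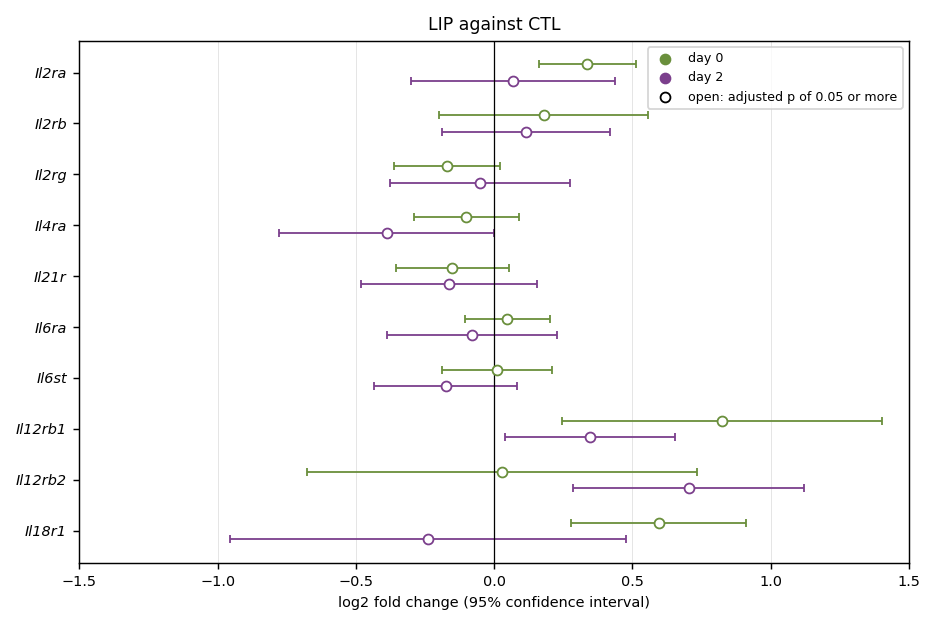
Log2 fold change of LIP against CTL (horizontal axis) for the 10 receptor genes on day 0 and day 2, with 95% confidence intervals of the edgeR fits. All points are open, since the adjusted p was 0.05 or more for each, and the intervals of Il2ra, Il12rb1 and Il18r1 on day 0 and of Il12rb1 and Il12rb2 on day 2 lie above 0.

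The difference of the LIP effect between the days was tested in 1 fit of all 12 libraries. It passed for 0 of the 10 genes, against 0.0517% of 15475 genes, and in DESeq2 also for 0. Without adjustment Il18r1 was under 0.05 (background 15.9%). The LIP effect on Il18r1 was 0.60 on day 0 and -0.24 on day 2, and the difference was -0.82 ± 0.34 on the log2 scale (95% confidence interval -1.55 to -0.08; adjusted p = 0.265). Without the filter on low counts it passed for Il18r1 (adjusted p = 0.0499), as it did for 2.89% of all genes. The interval for Il2ra was -0.64 to 0.14, and that for Il12rb2 was -0.16 to 1.52. The difference of Il4ra was -0.27 ± 0.21 (adjusted p = 0.576). Without LIP 90, the difference of Il4ra was -0.48 with an adjusted p of 0.0457, and 10.1% of all genes passed. Leaving out each library in turn, it ranged from -0.48 to -0.13 for Il4ra, with adjusted p up to 0.831. The 4 genes whose LIP groups were apart on 1 day, Il2ra and Il18r1 on day 0 and Il12rb1 and Il12rb2 on day 2, are thus not shown to differ in their LIP effect between the days in the fit with the filter.

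The partner chains were counted with the other interleukin and cytokine receptor genes. Of 36 such genes, 23 were tested between the days, of which 4 rose and 13 fell in CTL and 5 rose and 11 fell in LIP, with a median log2 fold change of -0.75 and -0.47. For these counts and those of the lists below, the background was 35.3% higher and 33.7% lower in CTL. In LIP it was 36.6% and 35.2%. None of the 21 and 22 tested in the LIP comparisons passed in edgeR on day 0 and day 2, where 4 and 5 were under 0.05 without adjustment (background 13.9% and 16.5%). Il18rap, the accessory chain of the IL-18 receptor, had the pattern of Il18r1. It was at 40.1, 19.3 and 43.7 CPM in CTL and 50.9, 70.0 and 74.7 CPM in LIP on day 0, and at 1.27, 1.43 and 1.93 CPM in CTL and 0.984, 2.15 and 1.29 CPM in LIP on day 2. It fell between the days by 4.47 in CTL and by 5.44 in LIP on the log2 scale (adjusted p = 1.23e-07 and 1.54e-08). It was higher in each LIP library on day 0 (log2 difference 0.94 ± 0.24, adjusted p = 0.130). Per kilobase, Il18r1 was at 3.64 to 7.01 times the level of Il18rap in all 12 libraries.

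**Figure D5:**
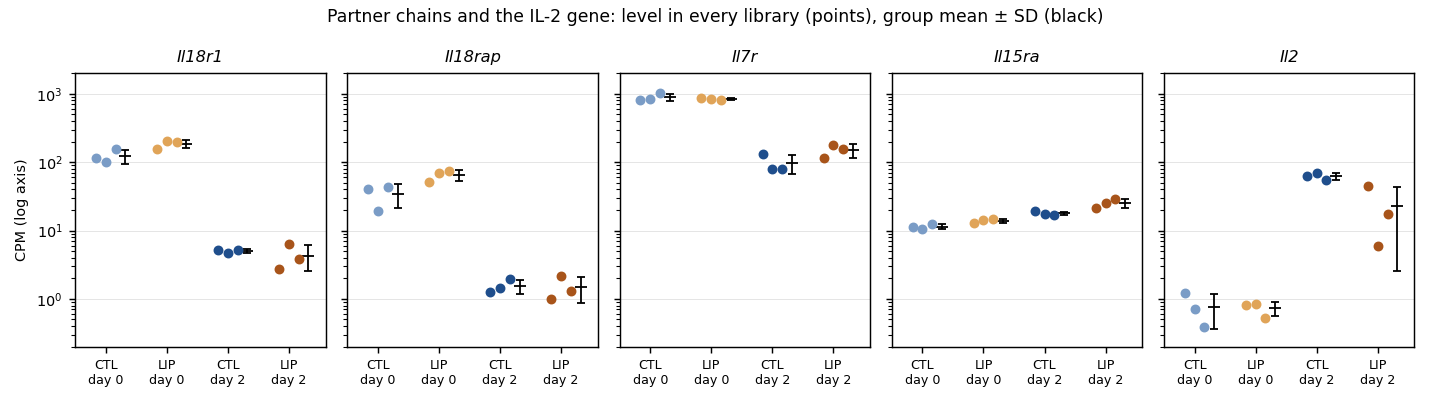
Level in CPM on a log axis (vertical) of Il18r1, Il18rap, Il7r, Il15ra and Il2 in the 4 groups (horizontal), with 1 point per library and the group mean ± SD of 3 libraries in black. Il18rap follows Il18r1, Il7r falls and Il15ra rises between the days, and Il2 is lower in each LIP library than in each CTL library on day 2.

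Il7r, which pairs with the common gamma chain to bind IL-7, fell from 820, 843 and 1025 CPM to 130, 80.0 and 80.7 CPM in CTL and from 863, 844 and 805 CPM to 113, 181 and 157 CPM in LIP. The fold changes were -3.21 ± 0.21 and -2.48 ± 0.20 on the log2 scale (adjusted p = 1.83e-08 and 1.28e-07). Per kilobase, Il7r was thus at 1.17 to 1.80 times the level of Il2rg on day 0 and at 0.0643 to 0.193 of it on day 2. Il15ra, which presents IL-15 to Il2rb and Il2rg, rose by 0.64 ± 0.14 in CTL and 0.85 ± 0.14 in LIP (log2, adjusted p = 0.00135 and 9.64e-05), and its LIP libraries lay above the CTL libraries on both days (adjusted p = 0.382 and 0.200). Il9r (IL-9), Il27ra (IL-27, with Il6st) and Il10rb (IL-10 family) fell, by 4.00, 0.75 and 0.99 in CTL and by 3.92, 0.93 and 0.47 in LIP on the log2 scale. Il17rb, a chain of the IL-25 receptor, fell by 3.65 in CTL and by 3.44 in LIP. Il23r, Il13ra1, Lifr and Osmr were at or below 1.31 CPM in every library and did not pass the filter on low counts.

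Of the ligands, 18 genes were found and 9 were tested between the days, of which 7 rose and 1 fell in CTL and 8 rose and 1 fell in LIP. Il2 was at 0.394 to 1.20 CPM in every uncultured library. On day 2 it was at 63.8, 68.5 and 55.1 CPM in CTL and 44.9, 5.89 and 17.2 CPM in LIP, lower in each LIP library (log2 difference -1.47 ± 0.55, adjusted p = 0.240). Il4 rose to 7.48 to 9.60 CPM in CTL and to 11.4, 28.4 and 11.6 CPM in LIP (log2 difference 1.00 ± 0.36, adjusted p = 0.224). Il21 was at 64.9, 31.9 and 10.7 CPM in CTL and 47.7, 305 and 56.1 CPM in LIP, where LIP 96 stood far above all others (adjusted p = 0.284). Lif, an IL-6 family ligand of gp130, rose from at most 1.07 CPM to 62.9 to 141 CPM. Il13, whose receptor includes Il4ra, rose from at most 0.120 CPM to 7.50 to 16.1 CPM, and Il9 from 0 in every library to 0.906 to 7.51 CPM. Clcf1, another ligand of the gp130 family, was the 1 gene that fell, from 55.1 to 73.6 CPM on day 0 to 13.4 to 20.4 CPM on day 2. Osm, of the same family, was at 12.5 CPM or more in every library, and its log2 fold change between the days was 0.02 ± 0.14 in CTL (adjusted p = 0.918) and 0.53 ± 0.13 in LIP (adjusted p = 0.00302). The transcripts of several ligands were scarce. Il12b was at 0 in every library, Il12a, Il15 and Il27 were at most 0.517 CPM, Il18 was at most 0.906 CPM and Il6 at most 1.59 CPM. A level of 0 allows up to 3 counts, which was 0.268 to 0.451 CPM in these libraries.

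Among the JAK kinases and STAT factors 11 genes were tested, and 6 rose and 2 fell between the days in each group. Jak2, which serves the IL-12 receptor, rose by 2.63 ± 0.17 in CTL and 2.56 ± 0.17 in LIP on the log2 scale. Jak3, which binds the common gamma chain, rose by 1.08 ± 0.12 and 0.99 ± 0.12, and Stat5a, a factor downstream of IL-2, also rose. Jak1 fell by 1.25 in CTL and by 1.17 in LIP. Stat4, the factor downstream of IL-12, did not pass (0.24 ± 0.18 and 0.15 ± 0.18). The genes named in this paragraph were chosen for their link to the 10 receptors after the values were known. Among 10 genes of IL-18 receptor signalling, which include Il18rap, 2 rose and 4 fell in CTL and 3 rose and 4 fell in LIP. The adaptor Myd88 did not pass (0.17 ± 0.19 and -0.03 ± 0.19). Among 9 genes of receptor shedding and trafficking, 6 rose in CTL, and 5 rose and 1 fell in LIP. Cish, a feedback inhibitor induced by IL-2, rose by 2.43 ± 0.21 and 1.98 ± 0.20, and Adam10, a protease that can shed receptors, by 0.66 ± 0.15 and 0.51 ± 0.15. In the LIP comparisons and in their difference between the days, no gene of these lists or of the ligands passed in edgeR. Without adjustment, 6 of the 9 ligands tested on day 2 were under 0.05 (background 16.5%), of which Il4, Il21, Lif, Osm and Ebi3 were higher and Il2 lower in LIP. In the JAK and STAT, IL-18 signalling and shedding lists on either day, at most 3 genes of a list were under 0.05. The same held for the ligands on day 0, where the background was 13.9%.

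The genes most alike in pattern were sought over the 12 libraries by the Pearson correlation of log2 CPM among 9911 genes, and all values mainly reflect the step between the days that the libraries share. For Il2ra these were Tnfrsf9 (r = 0.998), Lif (0.998) and Bcl2l1 (0.997), for Il12rb1 Fhl3, Cdk6 and Gfi1 (0.997 each), and for Il12rb2 Chmp4b (0.994), Nfkb2 (0.993) and Bcat1 (0.993). For Il18r1 they were Atp8a2, Usp48 and Smad5 (0.996 each). Il6ra was most like Ripor2 (0.997), Zgpat (0.996) and Txk (0.996), and Il6st was most like Camk1d (0.995), Brwd1 (0.993) and Gm15708 (0.992). Il2rg came nearest to Samd4b (0.989), Orai1 (0.987) and Prpf8 (0.987), and Il4ra to Ubap2l (0.977), Pop1 (0.973) and Ppan (0.969). The correlations were lower for Il21r with Clec16a (0.922), Ust (0.902) and Spata2 (0.888), and for Il2rb with Ccdc85b (0.885), Morrbid (0.831) and Unc119 (0.825), the 2 genes that passed between the days in neither group. Within the set, r was 0.981 for Il6ra with Il6st, 0.988 for Il12rb1 with Il12rb2, 0.935 for Il2ra with Il2rg and 0.288 for Il2rb with Il2rg. Chains of different receptors reached the same values, such as 0.988 for Il2ra with Il12rb1 and 0.986 for Il6ra with Il18r1.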

How the data were processed

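Total RNA was sequenced from splenic CD4+ T cells isolated by negative selection, giving 12 libraries (4 groups of 3) that were grouped by their labels. The libraries were prepared with rRNA depletion and a directional kit. The authors deposited expected counts per gene, without normalization. Their processing notes name FastQC 0.11.9, Trimmomatic 0.38, Bowtie2, RSEM 1.3.0, edgeR and the build GRCm39, and the annotation release is not given in the sources used here. The deposited tables for each day also hold the authors' fold changes and p-values, which were not used; only their gene symbols were. In the day 2 table, 2 columns of signal matched no labelled sample and were not used.

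The expected counts, of which 73267 values were not whole, were rounded. Genes were filtered with filterByExpr, scaled by TMM and tested with the quasi-likelihood test of edgeR 4.0.16 in R 4.3.3, with p-values adjusted by Benjamini-Hochberg over all genes tested (threshold 0.05). LIP and CTL were compared within each day (6 libraries), and the days and the interaction in a fit of 4 group means over 12 libraries. DESeq2 1.42.0, other scalings, no filter, other sets of libraries, a replicate block and leaving out each library were alternatives. Lengths and positions came from GENCODE M39. Scripts were tested on simulated data. Replicates differed by more than sampling noise. The floor of 3 counts covers counting error only, and the 95% confidence intervals are those of the edgeR fits. Correlations used log2(CPM + 0.5).

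The 10 genes, the lists and the tests were chosen with earlier results of these data known. Named beside the 10 genes were fixed partner chains and ligands, pathway list genes called in a LIP comparison or the interaction, the 3 highest and 3 lowest list genes called between the days in both groups, and the 3 genes most alike in pattern with a mean of at least 5 CPM. The marker genes, the other ligands and the genes of the JAK/STAT, IL-18 signalling and shedding lists that are named were chosen after their values were seen. Python 3.11.15 and matplotlib 3.10.9 drew the figures.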

Additional observations from a re-analysis of the deposited data

How the results depend on the processing

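The calls between the days were stable for Il2ra, Il2rg, Il6ra, Il6st, Il12rb1, Il12rb2 and Il18r1, which passed in the same direction in both groups under every alternative run, including the replicate block. Between LIP and CTL the number of the 10 genes called depended on the setting. Without the filter on low counts it was 3 on day 0, 1 on day 2 and 1 for the difference between the days, and 645, 662 and 815 of all genes were then called, against 60, 0 and 8. With DESeq2 it was 1 on day 0 and 1 on day 2, and 208, 488 and 546 of all genes were called. Leaving out 1 library in turn it was 0 to 2 on day 0 (2 without CTL 94), 0 to 3 on day 2 (3 without LIP 90) and 0 to 1 for the difference (1 without LIP 90). All genes called without CTL 94 numbered 658 on day 0, and without LIP 90 they numbered 2014 on day 2 and 1596 for the difference. With total counts only, 97 of all genes were called for the difference, and the share of higher calls on day 0 was 30.2% against 13.3%. In 1 fit of all 12 libraries, 12 genes were called on day 0 and 775 on day 2, and without CTL 94 the difference gave 27. Between the days, the number of the 10 genes called was 7 to 9 in each group, since Il4ra in CTL lost its call with upper-quartile scaling and Il4ra in LIP and Il21r in both groups gained one under some alternatives. The cause was not tested.

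Directions turned only where the difference was small. With upper-quartile scaling the log2 difference between the days became -0.044 for Il2rb and -0.013 for Il21r in CTL, and -0.12 for Il2rb, -0.015 for Il4ra and -0.042 for Il21r in LIP, and the difference of the LIP effect for Il21r became -0.029. With total counts only it became -0.16 for Il2rb, -0.051 for Il4ra and -0.084 for Il21r between the days in LIP, -0.021 for Il2ra between LIP and CTL on day 2, and -0.037 for Il2rg and -0.17 for Il21r in the difference of the LIP effect. Leaving out 1 library, the log2 difference of LIP on day 0 ranged from -0.041 to 0.34 for Il2rb, from -0.071 to 0.081 for Il6st and from -0.33 to 0.25 for Il12rb2. On day 2 it ranged from -0.063 to 0.18 for Il2ra, from -0.13 to 0.057 for Il2rg, from -0.19 to 0.043 for Il6ra and from -0.61 to 0.036 for Il18r1. The difference of the LIP effect ranged from -0.22 to 0.17 for Il2rb and from -0.12 to 0.10 for Il21r. Some libraries of 2 groups carried the same number (4 pairs). Their deviations from the group means had r from -0.0546 to 0.104, the highest for CTL 94 and LIP 94 of day 0. Pairs with different numbers had r from -0.138 to 0.108. So few pairs cannot decide whether libraries with the same number belong together, and the main fits did not pair them. A fit of all 12 libraries with the number as a replicate block, chosen after seeing the data, left 1 residual degree of freedom. In it the number of the 10 genes called was 0 on day 0, 1 on day 2 (Il12rb2, log2 1.14), 9 and 8 between the days in CTL and LIP, and 0 for the difference, and 61, 1404, 6847, 6884 and 550 of all genes were called. With the block the sign turned on day 0 for Il2rg (0.063), Il4ra (0.025) and Il21r (0.070), on day 2 for Il2rg (0.079), Il6ra (0.080) and Il21r (0.15), and in the difference for Il2rb (0.079) and Il6ra (0.038). The counts of Il12rb1 and Il12rb2 on day 0 and of Il18r1 on day 2, under 150 in each library, limit the precision of their ratios.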
